A study of Mus musculus with 12 samples.

Results

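The Hox genes encode homeodomain transcription factors and lie in 4 clusters, HoxA, HoxB, HoxC and HoxD. Members were taken by gene identifier, as every promoter, 5' UTR, exon, intron and 3' UTR level of 38 listed Hox genes in tables made by reduced representation bisulfite sequencing (RRBS). RRBS cuts DNA with MspI at CCGG, so it samples mostly CpG-rich sequence, and the methylation level is the share of cytosines read as methylated in all the cells of a library. In all, 146 Hox features had a level in at least 1 library, of 176831 features of every kind, and 135 had one in all 12 libraries. HoxA gave 38 of the 146, HoxB 39, HoxC 37 and HoxD 32. By gene part they were 34 promoters, 27 5' UTRs, 37 exons, 31 introns and 17 3' UTRs.

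The 12 mouse libraries fall into 6 groups of 2, all of strain C57BL6. ESC are female embryonic stem cells, and pESC are parthenogenetic embryonic stem cells derived from oocytes activated without sperm, so that both genome copies are maternal. ESC-PGCLC and pESC-PGCLC are primordial germ cell-like cells induced from these lines with BMP4, LIF, SCF and EGF by way of epiblast-like cells, which have no library here, and sorted for SSEA1 and CD61. E9.5 PGC and E12.5 PGC are primordial germ cells sorted from female embryos, the former on embryonic day 9.5 and the latter on day 12.5. The stem cell lines had been kept on feeder cells. The study describes the libraries of a group as biological replicates, and the labels do not say which cultures or animals they came from. With 2 libraries a group, p-values rest on the spread between these libraries. The libraries held levels for 144375 to 166476 features each. The read depth behind a level is unknown, so no interval for counting error is given. A level is an average over many cells, so fewer methylated cells and less methylation per cell cannot be told apart.

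In vertebrates Hox genes are laid out along the chromosome in the order in which they are used along the body axis, with the 3' genes acting in the head and anterior trunk and the 5' genes in the posterior trunk, limbs and genital tract. In pluripotent cells and germ cells the clusters are held silent mainly by Polycomb group proteins, on long CpG-rich stretches that carry little DNA methylation. Primordial germ cells pass through a genome-wide loss of DNA methylation on their way to the gonad.

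CpG islands and the flanking island shores are compared below, but most called gene parts were not placed relative to them. Windows of 200 bases are therefore shown from a shore at each of the 3 Hox promoters with the highest mean level in ESC. They are also shown from the adjoining islands at Hoxa6 and Hoxd4. Sequences are from the GRCm38 assembly, the build of the files (mm10), with every CpG in capitals.
Hoxc10 shore, chr15:102965412-102965611, plus strand: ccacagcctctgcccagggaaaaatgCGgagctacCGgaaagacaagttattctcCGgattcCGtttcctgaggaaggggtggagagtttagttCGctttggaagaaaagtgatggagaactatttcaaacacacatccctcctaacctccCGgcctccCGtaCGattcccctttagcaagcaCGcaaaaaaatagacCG
Hoxa6 CpG island, chr6:52208743-52208942, plus strand: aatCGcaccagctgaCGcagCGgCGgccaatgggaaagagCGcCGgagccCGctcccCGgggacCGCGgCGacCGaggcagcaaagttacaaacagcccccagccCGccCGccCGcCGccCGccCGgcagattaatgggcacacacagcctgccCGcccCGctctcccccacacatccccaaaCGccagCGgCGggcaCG
Hoxa6 shore, chr6:52209515-52209714, plus strand: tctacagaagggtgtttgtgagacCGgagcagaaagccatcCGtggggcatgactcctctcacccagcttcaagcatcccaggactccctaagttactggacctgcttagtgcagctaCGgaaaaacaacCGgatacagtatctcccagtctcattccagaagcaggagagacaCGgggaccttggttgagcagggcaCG
Hoxd4 CpG island, chr2:74727423-74727622, plus strand: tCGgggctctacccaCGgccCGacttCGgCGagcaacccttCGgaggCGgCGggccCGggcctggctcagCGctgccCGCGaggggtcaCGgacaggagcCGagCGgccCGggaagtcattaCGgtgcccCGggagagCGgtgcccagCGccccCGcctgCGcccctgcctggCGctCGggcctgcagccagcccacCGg
Hoxd4 shore, chr2:74726014-74726213, plus strand: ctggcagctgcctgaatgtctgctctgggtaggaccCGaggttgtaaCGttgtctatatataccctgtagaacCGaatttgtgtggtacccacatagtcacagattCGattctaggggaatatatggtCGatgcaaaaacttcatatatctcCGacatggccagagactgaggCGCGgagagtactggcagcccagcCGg
The shore windows hold 10, 6 and 9 CpGs for Hoxc10, Hoxa6 and Hoxd4, and the island windows 24 and 25 for Hoxa6 and Hoxd4. Each is the stretch of its island or shore with the most MspI sites outside annotated UTRs. The Hoxc10 window overlaps no annotated gene, the Hoxa6 windows lie within the annotated spans of Hoxa3 and of the noncoding gene Hoxaas3, and the Hoxd4 island window is coding sequence of Hoxd4. The Hoxd4 shore window lies within the annotated spans of Hoxd3 and Hoxd4. It contains the Mir10b hairpin at chr2:74726070-74726137, whose microRNA is described further on.

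The shore upstream of Hoxc10 (chr15:102964500-102966500) had 39.1% and 26.2% in ESC against 4.53% and 5.42% in E9.5 PGC. At Hoxa6 the island (chr6:52208719-52208947) had 4.05% and 3.30% in ESC, and the shore (chr6:52208947-52210948) had 50.7% and 31.0%. In E9.5 PGC the Hoxa6 island had 3.03% and 3.01% and the shore 10.1% and 10.5%, so the shore was above the island in both groups and by less in E9.5 PGC. At Hoxd4 the shore (chr2:74725332-74727332) had 28.8% and 18.7% in ESC and the island (chr2:74727334-74727642) 5.99% and 3.88%. This island was higher in pESC, at 14.8% and 13.6%, and in E9.5 PGC, at 10.9% and 8.93%, where the shore had 11.9% and 15.3%, so at Hoxd4 the 2 were close in E9.5 PGC. The Hoxd4 promoter level in the files equals this shore level in every library, so the promoter value is read from shore CpGs. These levels belong to the whole island or shore, not to the printed window.

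Within the gene spans of the clusters there were 69 CpG islands, with a median of 8.89 CpGs per 100 bases, and 115 shores, with a median of 2.35. Over those with a level in all 12 libraries, the 66 islands had a mean level between 2.62% and 2.99% in the 6 groups. The 106 shores had a mean of 8.89% ± 1.03 (SD, n = 2) in ESC and 4.65% ± 0.145 (SD, n = 2) in E9.5 PGC. Of the shores, 17 had a mean of at least 20% in ESC and 57 had one under 5%. Those of at least 20% had a median of 2.05 CpGs per 100 bases and those under 5% a median of 3.10. Some shores overlap one another and hold an island, as in HoxA around the island at chr6:52229856-52230272. Counts of shores are therefore not counts of separate regions. Over all islands and shores of the genome the shores were higher in E9.5 PGC, with a mean of 22.5% against 12.2% in ESC. From ESC to ESC-PGCLC 12 of the 106 shores were called lower by the rule given further on (1.77% of all shores were), from pESC to pESC-PGCLC also 12 (1.43%), and in E9.5 PGC against ESC 16 (2.18%).

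**Figure D1:**
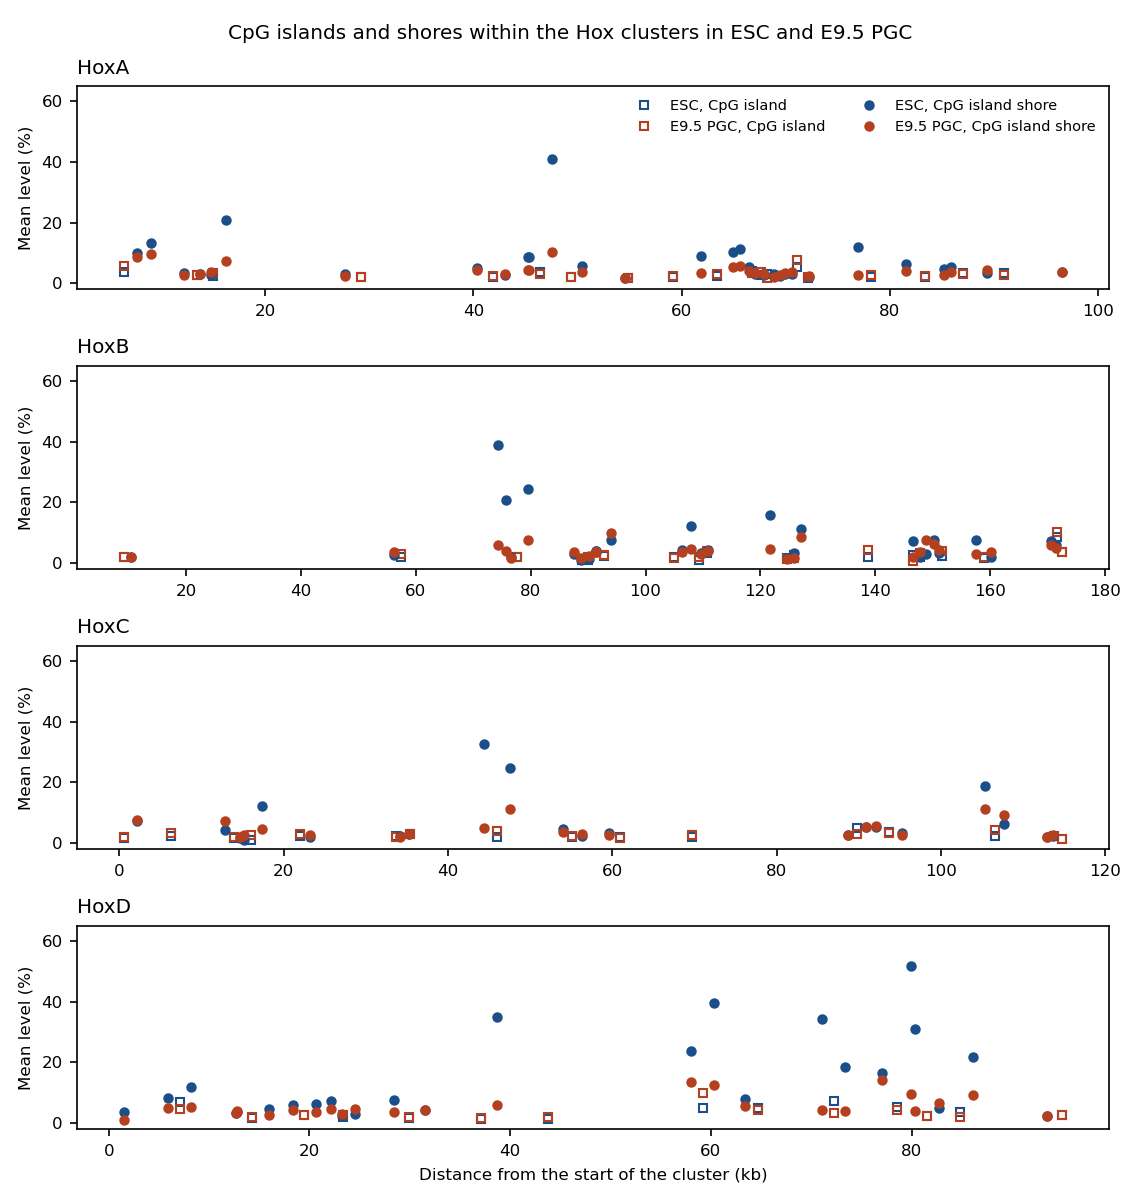
Mean methylation level (%, y axis) of each CpG island (open squares) and island shore (filled circles) against its distance in kb from the start of the cluster (x axis), 1 panel per cluster, for ESC (blue) and E9.5 PGC (red), each the mean of 2 libraries. Only islands and shores with a mean in both groups are drawn, and the islands among them reach at most 10.3%. Not drawn is 1 HoxB island without an E9.5 PGC mean, which has 27.6% in ESC. The tall points are ESC shores, the highest of them in HoxD at 51.7%.

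Most Hox gene parts carried little methylation in any group. Of the 135 measured in all libraries, 80 stayed under 5% in all 6 group means and 113 under 10%. The number with a mean of at least 10% was 21 in ESC, 21 in pESC, 5 in E9.5 PGC, 3 in E12.5 PGC, 7 in ESC-PGCLC and 9 in pESC-PGCLC. Over gene parts of all genes, 45.1% of parts had at least 10% in ESC and 54.3% in E9.5 PGC.

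The mean over the 33 Hox promoters was 8.15% and 6.67% in the ESC libraries, 7.88% and 7.79% in pESC, 3.69% and 3.62% in E9.5 PGC, 3.28% and 3.61% in E12.5 PGC, 4.40% and 3.98% in ESC-PGCLC, and 4.69% and 4.29% in pESC-PGCLC. The 4 stem cell libraries were all above the 8 germ cell and germ cell-like libraries. Promoters of all genes had a mean of 14.1% ± 1.94 (SD, n = 2) in ESC, 23.8% ± 0.145 (SD, n = 2) in E9.5 PGC and 15.5% ± 0.205 (SD, n = 2) in E12.5 PGC, so that there ESC was the low group. The median Hox promoter had 3.34% in ESC and 2.92% in E9.5 PGC. The same order of stem cells above germ cells was seen for Hox exons (4.28% in ESC, 3.12% in E9.5 PGC), introns (6.85% and 4.16%) and 3' UTRs (13.9% and 5.17%), but not for 5' UTRs (2.71% and 2.84%). These are descriptions of group means, and no test was made on them.

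**Figure D2:**
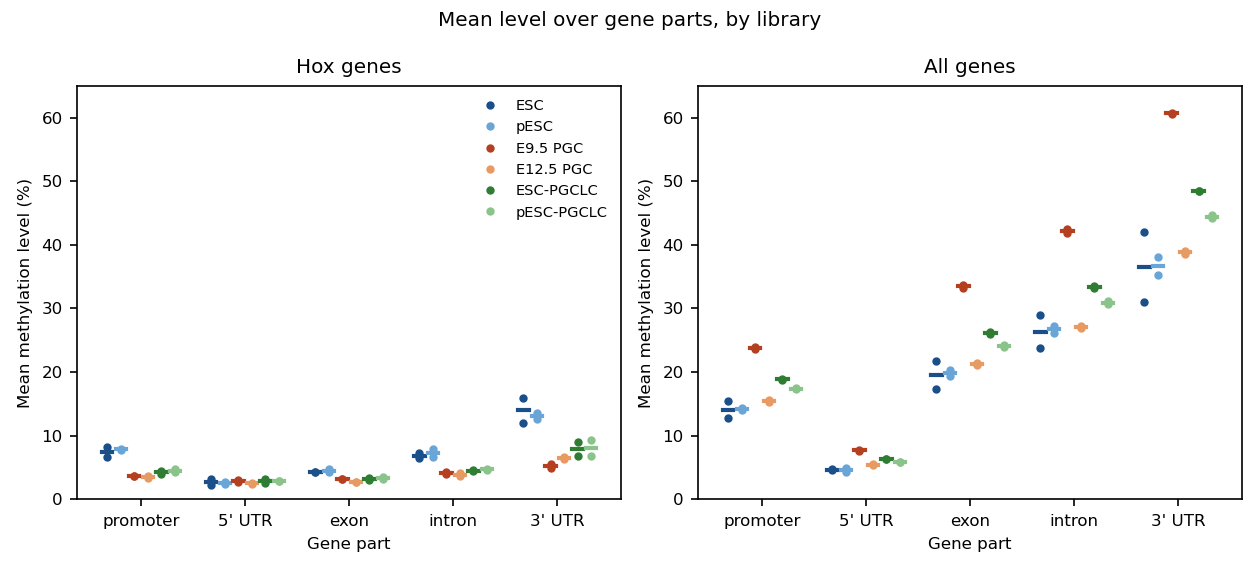
Mean methylation level (%, y axis) over the Hox genes (left) and all genes (right) for each gene part (x axis). Each point is 1 library, the short line is the mean of the 2 libraries of a group, and colours are the 6 groups. In Hox genes the ESC and pESC points lie above the others for every part but the 5' UTR, whereas over all genes E9.5 PGC is highest.

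A mean of at least 20% in some group was reached by 5 Hox promoters, those of Hoxc10, Hoxa6, Hoxd3, Hoxd4 and Hoxa3. Their highest group means were 29.1%, 28.0%, 23.6%, 23.7% and 20.5%, each in ESC or pESC. In both PGC groups none of the 33 promoters had a mean of 20%, and the highest was Hoxd4 with 13.6% at E9.5. The 2 lowest promoters over the 12 libraries were Hoxd8 at 1.72% and Hoxc12 at 1.87%. Among exons Hoxd4 (13.2%) and Hoxa3 (7.39%) were highest and Hoxd13 (1.51%) and Hoxb8 (1.53%) lowest. Among introns Hoxd4 (18.8%) and Hoxc10 (16.1%) were highest and Hoxb2 (1.46%) and Hoxd8 (1.54%) lowest. The highest 5' UTRs were those of Hoxb7 (8.14%) and Hoxd12 (5.29%), and the lowest those of Hoxb9 (0.840%) and Hoxb13 (1.24%). Among 3' UTRs Hoxd3 (28.4%) and Hoxb1 (21.03%) stood highest and Hoxb8 (1.74%) and Hoxc4 (1.77%) lowest.

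**Figure D3:**
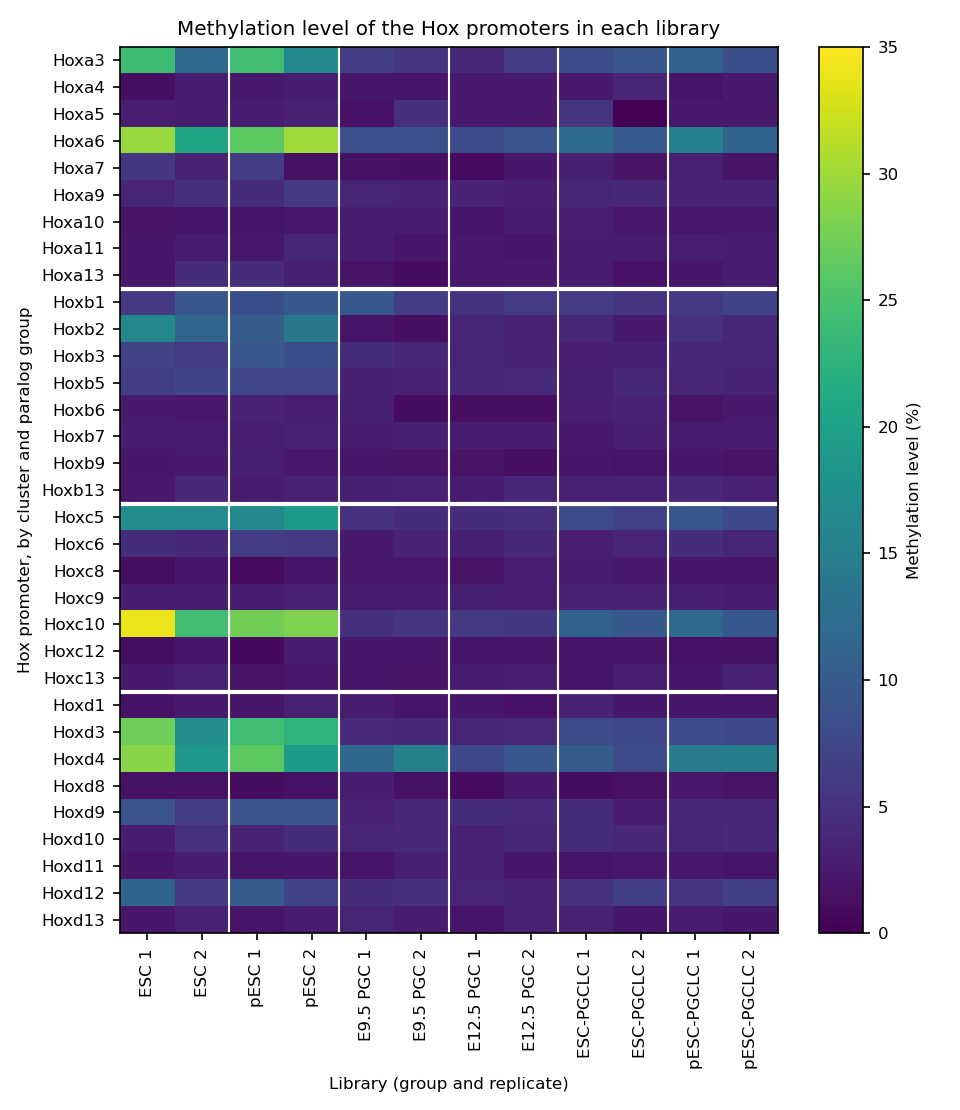
Methylation level (colour, 0 to 35%) of 33 Hox promoters (rows, by cluster and paralog group) in the 12 libraries (columns, 2 per group). The bright rows are Hoxa3, Hoxa6, Hoxc5, Hoxc10, Hoxd3 and Hoxd4 in the ESC and pESC columns, and most other rows are dark in every library.

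By the number in the gene name, the 6 anterior promoters (paralog groups 1 to 3) had a mean of 11.8% ± 2.79 (SD, n = 2) in ESC, the 12 central ones (groups 4 to 8) 7.89% ± 1.12 (SD, n = 2) and the 15 posterior ones (groups 9 to 13) 5.29% ± 0.293 (SD, n = 2). In E9.5 PGC the same 3 means were 4.40%, 4.11% and 2.99%. The highest anterior promoters in ESC were Hoxd3 (22.3%) and Hoxa3 (18.1%), and Hoxd1 had 2.11%. The annotated spans of Hoxd3 and Hoxa3 overlap those of central genes, so place along the cluster need not follow the number. By cluster, over all gene parts, HoxD had the highest ESC mean at 9.996% ± 1.82 (SD, n = 2), against 4.89% in HoxA, 5.93% in HoxB and 5.79% in HoxC. In E9.5 PGC the 4 clusters lay between 3.41% and 3.87%. Neighbouring genes are not independent here, since 11 of the 38 genes overlap another Hox gene in the annotation, among them Hoxd3 with Hoxd4, Hoxa3 with Hoxa6 and Hoxc5 with Hoxc10.

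To ask where groups differed, limma was fitted on log2 odds of the level over every feature of the files. A feature was called at a Benjamini-Hochberg adjusted p under 0.05 and at least 10 percentage points between group means. The share of all features called is given with each comparison as its background.

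Between the 2 kinds of stem cell no Hox feature was called. By limma, 0 of 138 Hox features and 0 of 148012 features in all passed (0%). At an unadjusted p under 0.05 there were 1 Hox feature, the Hoxc13 3' UTR, and 2054 features in all (1.39%). Hox differences ran from -8.83 to 3.57 percentage points, with a median of 0.139. The Hoxb7 5' UTR had 5.43% and 10.2% in ESC and 3.63% and 5% in pESC. The Hoxa2 intron had 6.06% and 8.33% in ESC and 4.40% and 4.31% in pESC. In the Hoxb4 3' UTR the levels were 6.86% and 7.04% in ESC and 10.8% and 8.31% in pESC. These were the 3 largest differences without overlap between the groups. With 2 libraries a group a missed threshold does not show that ESC and pESC were alike.

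Induction of ESC to ESC-PGCLC went with lower methylation at 10 Hox gene parts of 5 genes, Hoxd3, Hoxd4, Hoxc10, Hoxa6 and Hoxb2. Of 136 Hox features tested, 10 were called lower and 0 higher, which is 7.35%. Over all 136848 features 14.6% were called, 13.7% higher and 0.899% lower. The median change was -0.119 points over the Hox features and 1.26 points over all. HoxD held 6 of the 10, HoxC 2, and HoxA and HoxB 1 each.

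Hoxd4 and Hoxd3, genes that act in the hindbrain and the upper cervical vertebrae, gave 6 of the calls. The annotated span of Hoxd4 lies within that of Hoxd3, so these calls are not independent. The Hoxd4 gene (chr2:74711929-74729160, plus strand) had 43.7% and 31.8% in its intron in ESC and 8.94% and 9.80% in ESC-PGCLC. The 2 groups were well apart, and the level fell by 28.4 points (log2 odds -2.43, SE 0.27, adjusted p = 0.000978). The Hoxd4 exon went from 29.6% and 18.9% to 7.59% and 6.87%, and it fell by 17.0 points (adjusted p = 0.00393). The Hoxd4 promoter went from 28.8% and 18.7% to 10.3% and 8.13% and fell by 14.5 points (adjusted p = 0.0184). For Hoxd3 (chr2:74711927-74748442, plus strand) the promoter had 27.3% and 17.3% in ESC and 8.07% and 7.53% in ESC-PGCLC, and it fell by 14.5 points (adjusted p = 0.00734). All these parts were low in both ESC-PGCLC libraries, and ESC replicate 1 was above ESC replicate 2 in each. The Hoxd3 intron fell by 13.1 points (adjusted p = 0.0041). The Hoxd3 3' UTR fell by 53.9 points (adjusted p = 9.34e-05), to a listed level of 0.

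Hoxc10, a posterior gene used in the lumbar region and hindlimb, was called in 2 parts. Its promoter (gene at chr15:102966796-102971893, plus strand) had 33.9% and 24.3% in ESC and 10.8% and 9.86% in ESC-PGCLC, and it fell by 18.8 points (log2 odds -1.73, SE 0.27, adjusted p = 0.00422). Its intron fell by 11.3 points (adjusted p = 0.0184). The Hoxa6 promoter (gene at chr6:52206288-52208722, minus strand) had 29.6% and 20.7% in ESC and 12.3% and 10.2% in ESC-PGCLC, and it fell by 13.8 points (adjusted p = 0.0213). The Hoxb2 promoter (gene at chr11:96350525-96354012, plus strand), of a gene that patterns the hindbrain, had 16.1% and 11.4% in ESC and 4.04% and 2.60% in ESC-PGCLC and fell by 10.5 points (adjusted p = 0.00434). In no call did the groups overlap. Without ESC replicate 1 or without ESC-PGCLC replicate 2 the count was 5 in place of 10. As an alternative, each library's median over all features was subtracted, both from the log2 odds for the test and from the levels for the 10-point minimum. A Hox part whose own level does not move is then lower by as much as the library median rises, here by 12.8 points. On that relative scale 116 Hox features were called, all lower, a count that does not say that their own levels fell. The median change of all features in the uncentred fit was 0.26 on the log2 odds scale.

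In the parthenogenetic line, induction to pESC-PGCLC went with lower methylation at 7 Hox parts of Hoxd3, Hoxd4, Hoxc10 and Hoxa6. Of 136 tested, 7 were called lower and 0 higher (5.15%), beside 9.66% of all features, 8.91% higher and 0.746% lower. The Hoxd4 intron had 37.0% and 41.7% in pESC and 14.6% and 14.3% in pESC-PGCLC, and it fell by 24.9 points (log2 odds -1.87, SE 0.27, adjusted p = 0.00431). The Hoxd4 exon fell by 18.5 points (adjusted p = 0.00559), from 27.6% and 27.1% to 9.27% and 8.48%. The Hoxc10 promoter fell by 16.9 points (adjusted p = 0.00848), from 27.4% and 28.2% to 12.2% and 9.67%. Both pESC libraries lay above both pESC-PGCLC libraries in these parts. The Hoxd3 promoter fell by 15.6 points (adjusted p = 0.00747) and the Hoxa6 promoter by 14.8 points (adjusted p = 0.0293). All 7 were among the 10 of the ESC line, which is 70.0% of those. Leaving out pESC-PGCLC replicate 2 left 1 call and leaving out its replicate 1 left 4, with all 7 differences still below 0. Relative to library medians, which rose by 10.03 points, 81 were called, all lower.

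The change on induction differed between the 2 lines in 1 of 136 Hox features, the Hoxd3 3' UTR (0.735%, beside 0.0365% of all features in either direction and 0.0183% higher). Its level was 60.7% and 47.0% in ESC and 0% in both ESC-PGCLC libraries, whereas it was 50.6% and 43.9% in pESC and 40.2% and 24.3% in pESC-PGCLC. Both ESC-PGCLC libraries are listed at 0, and all other libraries were at 10% or above. The change in the pESC line minus that in the ESC line was 38.9 points (limma interaction, adjusted p = 0.0359). This call was lost whichever 1 of the 8 libraries was left out (adjusted p from 0.0517 to 0.196) and with a larger offset on the log2 odds scale, where the adjusted p was 0.661. A fitted log2 odds against libraries at 0 depends on the offset. A shore that overlaps the end of the gene (chr2:74747291-74749292, chosen after its values were seen) had means of 51.7% in ESC, 46.6% in pESC, 6.61% in ESC-PGCLC and 25.2% in pESC-PGCLC.

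Compared directly, pESC-PGCLC and ESC-PGCLC differed in the same single part. The Hoxd3 3' UTR was 32.3 points higher in pESC-PGCLC (adjusted p = 0.0134), 1 of 135 Hox features or 0.741%, beside 0.0948% of all features called and 0.0445% called higher. Without ESC-PGCLC replicate 2 it was not called (adjusted p = 0.0579).

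Primordial germ cells were set against stem cells after the data had been seen, in a fit of all 12 libraries. Of 135 Hox features, 15 of 10 genes were called lower in E9.5 PGC than in ESC and 0 higher (11.1%). Over all 133311 features 42.9% were called, 42.1% higher and 0.892% lower. The Hoxd4 intron had 7.20% and 8.15% in E9.5 PGC, a difference of -30.05 points from ESC (adjusted p = 2.09e-05). The Hoxc10 promoter had 4.89% and 5.46%, a difference of -23.9 points (adjusted p = 1.44e-05). The Hoxb9 3' UTR had 34.3% and 24.8% in ESC and 7.50% and 8.03% in E9.5 PGC, a difference of -21.8 points (adjusted p = 0.000411). Each of these parts was low in both PGC libraries. The Hoxd3 3' UTR had 10% and 10.5% in E9.5 PGC, a difference of -43.6 points (adjusted p = 8.45e-05). The Hoxd8 3' UTR had 33.3% and 27.6% in ESC and was listed at 0 in both E9.5 PGC libraries (adjusted p = 0.00512). Across the groups its levels are fractions with small denominators, as small read counts would give. The depth is unknown and its part in the calls of this 3' UTR was not tested. Besides the 10 parts called in ESC-PGCLC, the 15 held the Hoxd8, Hoxb9 and Hoxb1 3' UTRs and the Hoxc5 and Hoxa3 promoters. The Hoxc5 promoter had 17.1% and 16.9% in ESC, 4.95% and 4.44% in E9.5 PGC and 8.10% and 7.003% in ESC-PGCLC. The Hoxa3 promoter had 24.1% and 12.1% in ESC, 6.34% and 5.37% in E9.5 PGC and 8.29% and 9.45% in ESC-PGCLC. ESC-PGCLC and E9.5 PGC are here compared with the same 2 ESC libraries, so the lists are not independent. Relative to library medians, which were 22.3 points higher in E9.5 PGC, 133 Hox features were called, all lower, and the uncentred median of all features was 0.68 higher on the log2 odds scale.

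From E9.5 to E12.5 no Hox part was called lower, while 49.6% of all features were. A fall of 10 points needs a starting level of at least 10%. In E9.5 PGC 5 of the 135 Hox parts had one, against 54.3% of the parts of all genes. The other Hox parts could not be called lower, so the count does not show that they kept their methylation. The same limit holds for lower calls against E9.5 PGC in the next paragraph. Over all 137202 features 49.6% were called in either direction, with a median change of -11.5 points. Of 135 Hox features 0 were called lower and 2 higher (1.48%, beside 0.035% of all features called higher), with a median change of -0.281 points. The Hoxd3 3' UTR had 10% and 10.5% in the E9.5 libraries and rose to 29.7% and 23.3% in those of E12.5, 16.2 points higher (adjusted p = 0.00768). The Hoxd8 3' UTR was listed at 0 in both E9.5 libraries and had 13.3% and 16.7% at E12.5 (adjusted p = 0.0486). These too are fractions with small denominators. The Hoxd8 call was lost when any 1 of the 4 libraries was left out, and on untransformed levels neither part was called. At an unadjusted p under 0.05 there were 20 Hox features, beside 60.9% of all features. The widest fall, chosen after its values were seen, was in the Hoxb13 3' UTR, which decreased by 6.46 points (adjusted p = 0.00291) and so stayed under the 10-point minimum. Relative to library medians, which fell by 15.99 points, 114 Hox features were called, all higher, and the median Hox difference was 15.7 points in place of -0.281. The uncentred median of all features was -0.86 on the log2 odds scale.

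Against E9.5 PGC, ESC-PGCLC differed in 3 of 135 Hox features (2.22%), 2 higher and 1 lower, whereas 29.8% of all features were called, 29.6% lower and 0.168% higher. The Hoxb9 3' UTR, of a posterior gene of the thoracic region, had 18.2% and 18.1% in ESC-PGCLC against 7.50% and 8.03% in E9.5 PGC, 10.4 points higher (log2 odds 1.30, SE 0.10, adjusted p = 0.00081). The Hoxd8 3' UTR, whose levels may rest on few reads, had 57.1% and 10% in ESC-PGCLC and was listed at 0 in both E9.5 libraries (adjusted p = 0.0285). That call was lost without either E9.5 PGC library or without ESC-PGCLC replicate 1, where the adjusted p was 0.117 and the level 10%. The Hoxd3 3' UTR was listed at 0 in ESC-PGCLC (adjusted p = 0.000989). Relative to library medians, which differed by -10.1 points, 78 were called, all higher, and the uncentred median of all features was -0.44 on the log2 odds scale. In pESC-PGCLC 1 Hox feature was called (0.741%), the Hoxd3 3' UTR, 22.0 points higher than in E9.5 PGC (adjusted p = 0.00404), while 40.3% of all features were called, 0.127% higher. Relative to library medians, which differed by -12.1 points, that count was 103, all higher.

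Against E12.5 PGC the counts were also small. ESC-PGCLC differed in 1 Hox feature (0.741%), the Hoxd3 3' UTR, which at 0% was lower than the 29.7% and 23.3% of E12.5 PGC (adjusted p = 0.00169), while 22.8% of all features were called, 0.523% lower. In pESC-PGCLC 0 of 135 were called by limma and 29 had an unadjusted p under 0.05, beside 7.10% and 30.8% of all features. The largest differences without overlap were the Hoxd4 intron, at 14.6% and 14.3% in pESC-PGCLC and 3.96% and 5% in E12.5 PGC, the Hoxd8 3' UTR, at 10.5% and 0% against 13.3% and 16.7%, and the Hoxb9 3' UTR, at 16.3% and 14.8% against 8.77% and 8.33%. The Hoxd4 intron was 9.97 points higher, just under the 10-point minimum, with an adjusted p of 0.00729.

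MicroRNA genes sit within the clusters and repress Hox transcripts, among them the Mir10 genes beside the group 4 paralogs and the Mir196 genes beside the group 9 paralogs. Their mature sequences are shown for the 2 hairpins that lie where stem cell methylation was high, from RefSeq for GRCm38.p6, with the seed, bases 2 to 8, in capitals. All 6 microRNA genes on the list had an entry.
mmu-miR-10b-5p: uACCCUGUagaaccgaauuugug
mmu-miR-10b-3p: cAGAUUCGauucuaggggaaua
mmu-miR-196a-5p: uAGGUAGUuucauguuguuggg
mmu-miR-196a-1-3p: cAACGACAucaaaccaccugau
The miR-196a-5p sequence is the same in Mir196a-1 (HoxB) and Mir196a-2 (HoxC), and miR-196b-5p from Mir196b (HoxA) shares its seed AGGUAGU. The 3 loci differed in level. The Mir196a-1 promoter (hairpin at chr11:96265164-96265265, plus strand) had 42.2% and 31.5% in ESC, 39.2% and 37.4% in pESC, 4.05% and 4.86% in E9.5 PGC, 6.86% and 7.87% in E12.5 PGC, 10.8% and 10.2% in ESC-PGCLC, and 15.8% and 13.8% in pESC-PGCLC. It fell by 26.4 points from ESC to ESC-PGCLC (adjusted p = 0.00113) and by 23.5 points from pESC to pESC-PGCLC (adjusted p = 0.00416). Its exon fell by 18.1 points (adjusted p = 0.0205) in the ESC line and fell by 20.04 points (adjusted p = 0.0173) in the pESC line. The Mir196a-2 promoter stayed between 1.94% and 4.38% and the Mir196b promoter between 1.71% and 3.15% in the 12 libraries. The shore that holds Mir10b is the one whose level equals the Hoxd4 promoter.

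Of the TALE homeobox cofactors, which bind DNA together with Hox proteins, 2 of 37 features were called from ESC to ESC-PGCLC, both higher and both of Pbx2, the exon by 18.7 points and the promoter by 10.9 points. That is 5.41% of them, beside 14.6% of all features. Of the activators and chromatin regulators of Hox genes, 19 of 95 were called, 18 higher and 1 lower, a share of 20% beside the same 14.6%. The Kdm6b promoter, of an H3K27 demethylase, rose by 42.6 points (adjusted p = 0.000358), and the Rarg intron, of a retinoic acid receptor, by 27.9 points (adjusted p = 0.000116). Of the other genes within or beside the clusters, 10 of 67 were called, 6 higher and 4 lower. At 14.9% the total is near the share of all features, but only 0.899% of all features were called lower. The Cbx5 intron, of a gene flanking HoxC, rose by 37.1 points (adjusted p = 0.000154). From pESC to pESC-PGCLC the Hotairm1 intron, of a noncoding RNA in HoxA, fell by 21.2 points (adjusted p = 0.00263).

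Other developmental homeobox and Pax genes, many of them also Polycomb targets, served as the nearest comparison. Their 63 promoters had a mean of 4.87% ± 0.503 (SD, n = 2) in ESC, below the 7.41% ± 1.05 (SD, n = 2) of the Hox promoters, and 3.20% in E9.5 PGC. From ESC to ESC-PGCLC 10 of 292 of their features were called, 9 lower and 1 higher (3.42%, against 7.35% of the Hox features and 14.6% of all features). Of all features 0.899% were called lower, so their lower calls, like those of the Hox features, were above that share. From E9.5 to E12.5 21 of 290 were called, all lower (7.24%), and of the Hox features 2 were called, both higher. Both shares were far below the 49.6% of all features. Features under 10% in E9.5 PGC could not be called lower, and 5 of the 135 Hox features reached that level. The shares therefore do not compare how readily methylation was lost. Against ESC, E9.5 PGC had 14 called higher and 14 lower, together 9.66% of 290, beside 42.9% of all features in either direction and 0.892% called lower. The Lhx9 intron fell by 31.7 points (adjusted p = 0.000382) and the Emx2 3' UTR by 47.6 points (adjusted p = 0.00416) from ESC to ESC-PGCLC. The difference between the gene lists was not tested.

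RNA of these cells was not analysed here, so the labelled cell types were not checked against expressed markers. Of the 9 germline and pluripotency genes listed as markers, 8 had promoter levels in every library. The promoter of the germline gene Ddx4 had a mean of 11.5% in ESC, 72.6% in E9.5 PGC, 46.3% in E12.5 PGC and 46.7% in ESC-PGCLC. That of Dppa3, listed as a naive pluripotency gene, had 3.08%, 68.5%, 33.7% and 39.8%. The promoter of Pou5f1, listed in the same way, had 2.80%, 24.7%, 14.6% and 14.9%. All 8 had their lowest mean in ESC or pESC and their highest in E9.5 PGC. These levels move with the groups, opposite to the Hox shores, and their part in the result was not tested.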

How the data were processed

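RRBS libraries of 12 mouse samples were analysed. According to the submitters' processing notes, reads were aligned to mm10 with Bismark 0.16.3 and Bowtie2. The authors deposited, per library, the methylation level of each promoter, gene part, CpG island and shore as the fraction of CpG calls that were methylated. They describe dropping duplicate reads and correcting for incomplete bisulfite conversion, which would bear on levels near 0. Whether the listed levels carry that correction is not known. Some are simple fractions, such as 12.5%, 90.0% and 40.0% among the PGCLC libraries at the Sycp3 promoter. Coverage per feature, its minimum and the promoter definition are not given in the sources used here, so depth is unknown and counts could not be tested. Levels were multiplied by 100 and joined by feature identifier. Gene names and spans came from GENCODE M21 on GRCm38.

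Samples were grouped by their labels. In R 4.3.3, limma 3.58.1 was fitted on log2 of (level + 0.01) / (1 - level + 0.01), over every feature with a level in all libraries of the fit, after checks on simulated data. A call needed a Benjamini-Hochberg adjusted p under 0.05 over all features and a difference of at least 10 percentage points. All 12 libraries were fitted for E9.5 PGC against ESC, a comparison chosen after seeing the data. The other fits held the libraries of the stem cells, of the PGCs and PGCLCs, or of induction. Alternatives were a fit of all libraries, gene parts alone, another offset, untransformed levels, subtracting library medians from log2 odds and levels, other minimum differences, the replicate number as a block, and leaving out each library. Genes named are the largest called differences in each direction (up to 5, or the 3 largest without overlap where none was called), the 2 highest and 2 lowest of each gene part, promoters of at least 20%, and called members of the other lists. The members and lists were chosen with earlier results of these data known. The sequence of 1 island window is not reported here.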

Additional observations from a re-analysis of the deposited data

Results flagged for a closer look

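The change of the Hoxd3 3' UTR on induction differed between the 2 lines, by 38.9 percentage points (pESC line minus ESC line, limma interaction, Benjamini-Hochberg adjusted p = 0.0359). Both ESC-PGCLC libraries are listed at 0, against 40.2% and 24.3% in pESC-PGCLC. With an offset of 0.1 the adjusted p was 0.661, on untransformed levels it was 0.647, and with 1 library left out it ran from 0.0517 to 0.196. How many reads each level rests on is not known, and the part of depth in the result was not tested.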

How the results depend on the processing

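Of 472 alternatives to the 41 called differences, 409 kept the call, 63 lost it and 0 changed its direction, and 20 of the 41 lost it without some library. The 472 include settings with no minimum difference or one of 5 points. Those settings reuse the adjusted p of the main fit, so they could neither lose a call nor change its direction. The counts of called Hox features moved most with centring on the library median: 114 in place of 2 (E12.5 PGC minus E9.5 PGC), 78 in place of 3 (ESC-PGCLC minus E9.5 PGC), 103 in place of 1 (pESC-PGCLC minus E9.5 PGC), 116 in place of 10 (ESC-PGCLC minus ESC), 81 in place of 7 (pESC-PGCLC minus pESC) and 133 in place of 15 (E9.5 PGC minus ESC). Centring subtracts the library median from the log2 odds and from the levels used for the 10-point minimum, so a part whose level does not move can be called when the library medians differ by 10 points or more. Centring also moved the lower calls against ESC and pESC further down, so keeping those calls under it is not a check on them. It changed the sign of the median Hox difference in 5 of 11 comparisons, from -0.281 to 15.7 points for E12.5 PGC minus E9.5 PGC. With no minimum difference the same 6 counts were 14, 13, 22, 16, 14 and 35. It gave 24 in place of 1 for ESC-PGCLC minus E12.5 PGC and 15 in place of 0 for pESC-PGCLC minus E12.5 PGC. A minimum of 5 points, tried after seeing the data, gave 12 for pESC-PGCLC minus pESC. With an offset of 0.1 there was 1 call for E12.5 PGC minus E9.5 PGC and 0 for the interaction. Untransformed levels gave 0, 1 and 0 calls for E12.5 PGC minus E9.5 PGC, ESC-PGCLC minus E9.5 PGC and the interaction. Apart from centring, the cause of these changes was not tested. Leaving out 1 library gave 1 call for E12.5 PGC minus E9.5 PGC, 2 to 3 for ESC-PGCLC minus E9.5 PGC, 0 to 1 for pESC-PGCLC minus E12.5 PGC and for pESC-PGCLC minus ESC-PGCLC, 5 to 15 for ESC-PGCLC minus ESC, 1 to 6 for pESC-PGCLC minus pESC, 0 for the interaction and 11 to 18 for E9.5 PGC minus ESC. A group left with 1 library was assumed to vary like the others.

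The labels share replicate numbers, but nothing says that a number marks a shared batch. Deviations of same-numbered libraries correlated at 0.432 for pESC and ESC and between -0.0573 and 0.1385 in the other comparisons. With a replicate block the counts were the same, 10 for ESC-PGCLC minus ESC and 7 for pESC-PGCLC minus pESC.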
